A study of Mus musculus with 6 samples.

Results

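The transcripts of 10 cytokine genes were followed in cultured mouse fibroblasts: Il6, Lif, Il11, Csf1, Csf2, Csf3, Il33, Il1b, Il1rn and Tslp. All but Tslp belong to the interleukin-6 (IL-6), colony-stimulating factor (CSF) or interleukin-1 (IL-1) families. The 10 were listed by name, with earlier results of these data known, so their counts beside those of all genes are a description. All 10 were found among the 57010 gene identifiers of the count table. Fibroblasts from mouse ear were kept for 3 days on a polyacrylamide gel of 1 kPa, on a polyacrylamide gel of 20 kPa or on glass, which served as the control surface, with 500000 cells a sample. Polyadenylated RNA was sequenced from 2 libraries per group, 6 in all. The labels give no genotype, strain, sex or age and no added agent. Whether a group's libraries stem from different animals or cultures is not stated, so every p-value reflects the spread from library to library, which may be technical.

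As background, Il6, Lif and Il11 encode cytokines that signal through receptors sharing the chain gp130 (Il6st) and activate JAK kinases and the transcription factor STAT3. Csf1, Csf2 and Csf3 encode the macrophage, granulocyte-macrophage and granulocyte colony-stimulating factors, which drive myeloid cell growth and differentiation. Il1b and Il33 are IL-1 family cytokines that act through NF-kB, Il1rn encodes the antagonist that occupies the IL-1 receptor without signalling, and Tslp is a cytokine of epithelial and stromal cells. Fibroblasts are a known source of several of these proteins in inflamed and wounded skin, and many of the mRNAs are short-lived.

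Library totals ran from 17669006 to 21350111 counts. Levels are given as CPM, a gene's counts scaled to a common library size with TMM factors, and 3 counts correspond to 0.139 to 0.174 CPM. Of all identifiers, 16093 passed the filter on low counts and were tested. The fibroblast label was checked on 10 markers, of which all were detected in every group, with a summed level of 28300 to 29500 CPM on 1 kPa, 30900 to 32200 CPM on 20 kPa and 19600 to 21000 CPM on glass. Of these markers, 9 were higher and 1 lower on 1 kPa than on glass, and 8 were higher and 1 lower on 20 kPa than on glass. The matrix genes Dcn and Lum were at log2 4.49 and 4.36 for 1 kPa against glass, and 4.21 and 4.28 for 20 kPa against glass, while Vim was lower on the gels, at -0.94 and -0.62. The median log2 fold change of the 10 markers was 0.35 on 1 kPa and 0.41 on 20 kPa against glass. On both gels the marker sum and most of the cytokines stood above glass. Between the gels the marker sum was higher on 20 kPa, where most of the cytokines were lower than on 1 kPa. The part of these marker shifts in the results was not tested. In bulk RNA, fewer cells that make a transcript and less of it per cell cannot be told apart.

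On the soft gel the cytokine transcripts were called higher than on glass, Csf1 by only 1.16-fold. Of the 10 members, 3 passed the filter on low counts only through the 1 kPa libraries. Counts and medians over all 10 are therefore a description and no support. All 10 members were called higher on 1 kPa than on glass by edgeR's quasi-likelihood test (adjusted p under 0.05), against 23% of all tested genes. In the test over the 3 groups all 10 were called, against 51.2% of tested genes. On 20 kPa, 6 members were higher than on glass, where 22.3% of tested genes were, and 1 member was lower, where 19.6% were. Between the gels, 7 members were lower on 20 kPa than on 1 kPa, against 9.92% of tested genes, and 1 was higher, against 8.94%. The median log2 fold change of the 10 members was 3.20 for 1 kPa against glass, 1.89 for 20 kPa against glass and -1.23 for 20 kPa against 1 kPa, while that of all tested genes was 0.00, 0.02 and 0.00. With Il1b, which had no count on glass, set at its lower bound, the median for 1 kPa against glass was 3.14. The 2 comparisons with glass share the glass libraries, so they are not independent.

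Csf2, Il1b and Tslp passed the filter only through the 1 kPa libraries, where they were high, so counts that include them are not support. Without them, the 7 other members were all higher on 1 kPa than on glass, 6 were higher and 1 was lower on 20 kPa than on glass, and 5 were lower and 1 was higher on 20 kPa than on 1 kPa. Of the 7, Il6, Lif, Csf3 and Il1rn were called with a log2 fold change of at least 3 for 1 kPa against glass, as were 1.97% of tested genes, and Il33 and Il1rn were for 20 kPa against glass, as were 1.68%. Over these 7 the medians were 3.03, 2.01 and -0.80 in the same order of comparisons. Among all tested genes called between the gels, 47.4% were higher on 20 kPa, and 60.8% were when libraries were scaled to total counts, while the members' calls stayed at 1 higher and 7 lower.

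**Figure D1:**
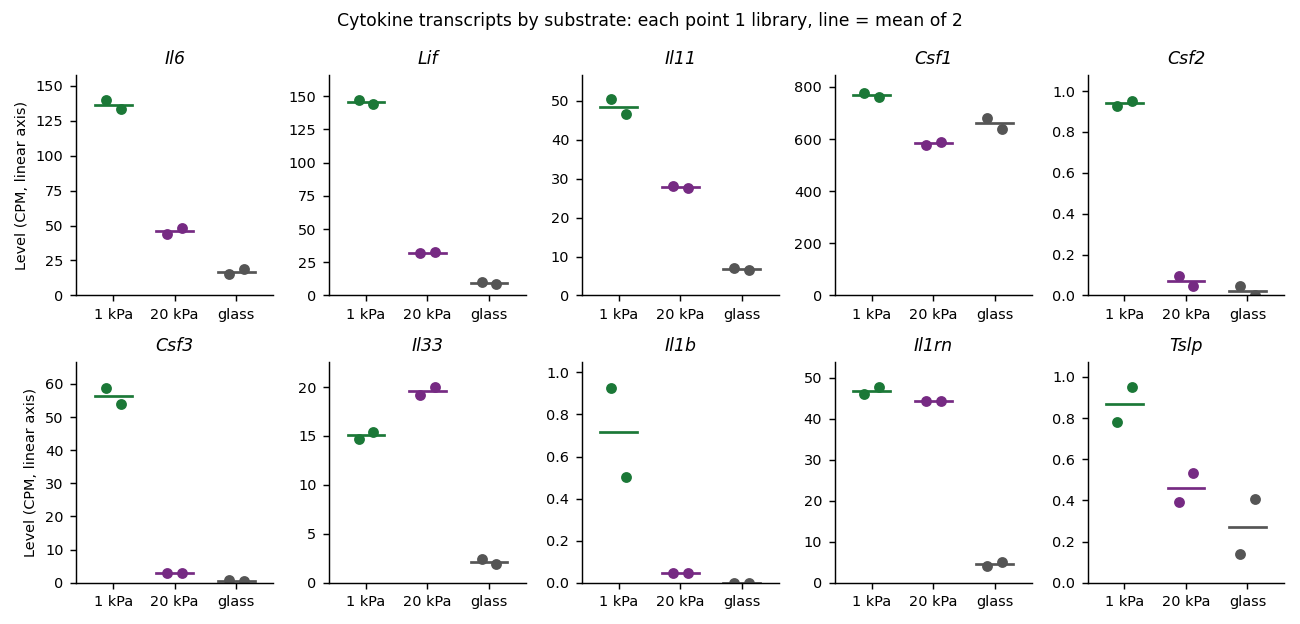
Level of each cytokine transcript in CPM (linear vertical axes starting at 0) on 1 kPa, 20 kPa and glass; points are single libraries and lines the means of 2. Il6, Lif, Il11 and Csf3 stepped down through the 3 surfaces, Il33 and Il1rn stood at similar levels on both gels far above glass, and Csf1 stayed between 579 and 775 CPM in every library.

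Promoter sequence upstream of the RefSeq start site is shown for Il6 and Lif, which were highest on 1 kPa, and for Il1rn, which stood at a similar level on both gels. The stretches come from RefSeq (build GRCm38.p6, plus strand): Il6 from chr5:30012864-30013113, Lif from chr11:4257318-4257417 and Il1rn from chr2:24336660-24336759. Capitals mark matches to the motifs described below.
Il6: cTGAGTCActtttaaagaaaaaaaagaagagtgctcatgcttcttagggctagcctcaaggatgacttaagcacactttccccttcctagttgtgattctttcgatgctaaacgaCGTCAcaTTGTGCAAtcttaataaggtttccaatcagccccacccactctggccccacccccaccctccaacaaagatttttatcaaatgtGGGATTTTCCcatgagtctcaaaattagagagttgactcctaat
Lif: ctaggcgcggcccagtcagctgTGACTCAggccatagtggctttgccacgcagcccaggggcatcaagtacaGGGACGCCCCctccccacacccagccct
Il1rn: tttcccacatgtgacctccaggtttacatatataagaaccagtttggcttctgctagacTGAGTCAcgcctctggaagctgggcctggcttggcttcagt

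Motifs were searched on both strands in windows of 250 bases before to 50 after each start site, and 8 members had 12 such windows in the RefSeq table. The NF-kB decamer matched in 3 of 8 members, against 8.46% of all 32851 windows. Counting from -1 for the base just before the start site, its matches began at -44 in Il6, -178 in Lif and -154 in Csf1. The AP-1 heptamer TGANTCA matched in 4 members, against 7.81% of windows, beginning at -249 in Il6, -228 in Lif, -98 in Il11 and -141 in Il1rn. The CRE core TGACG matched in Il6 alone (20.8% of windows), where its match on the minus strand reads as the first run of capitals after the AP-1 match. The C/EBP motif TTNCNNAA matched in 5 members (40.7% of windows), the TATA box letters TATAAA in 3 (13.6%) and the STAT motif TTCNNNGAA in none (8.3%). In Il1rn the only TATAAA match was on the minus strand and began at base 15 after a start site, which is not the place of a TATA box. A member with several start sites had more than 1 window and so more chances of a match. The matches are letters in a window and say nothing of binding.

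Among the gp130 cytokines, Lif had the largest fold change for 1 kPa against glass and between the gels, and Il11 for 20 kPa against glass. Lif (ENSMUSG00000034394.15, chr11:4257557-4272514, plus strand) had 147 and 144 CPM on 1 kPa, 31.9 and 32.4 CPM on 20 kPa, and 10.2 and 8.64 CPM on glass. The 3 groups did not overlap, and each step was many times wider than the gap between libraries of a group. Its level was 15.3-fold higher on 1 kPa than on glass (log2 3.94, SE 0.08, edgeR adjusted p = 1.5e-25) and 3.39-fold higher on 20 kPa than on glass (log2 1.76, SE 0.09, adjusted p = 9.1e-16). Between the gels it fell by 2.18 on the log2 scale on 20 kPa (SE 0.07, adjusted p = 4.9e-20), and 44 tested genes fell further.

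Il6 (ENSMUSG00000025746.12, chr5:30013114-30019981, plus strand), an inducer of acute-phase and inflammatory responses, had 140 and 133 CPM on 1 kPa, 43.9 and 48.4 CPM on 20 kPa, and 15 and 18.7 CPM on glass. These rest on 2379 to 2880 counts on 1 kPa and 323 to 325 on glass. It was 8.17-fold higher on 1 kPa than on glass (log2 3.03, SE 0.09, edgeR adjusted p = 1.3e-22), 2.76-fold higher on 20 kPa than on glass (log2 1.46, SE 0.09, adjusted p = 3.3e-14), and lower on 20 kPa than on 1 kPa (log2 -1.57, SE 0.08, adjusted p = 4.4e-16). The order was the same as for Lif.

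Il11 (ENSMUSG00000004371.16, chr7:4772373-4782859, minus strand), a cytokine linked to fibrosis, had 50.4 and 46.6 CPM on 1 kPa, 28.1 and 27.7 CPM on 20 kPa, and 7.12 and 6.67 CPM on glass. Both gels stood far above glass, and the step between the gels was smaller than for Lif or Il6. The log2 fold change was 2.81 for 1 kPa against glass (SE 0.1, edgeR adjusted p = 7e-20), 2.01 for 20 kPa against glass (SE 0.11, adjusted p = 9.1e-16) and -0.80 for 20 kPa against 1 kPa (SE 0.08, adjusted p = 1.2e-08).

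Of the colony-stimulating factors, Csf3 had a large and well-counted difference between surfaces, Csf1 small ones and Csf2 too few counts to be ranked. Csf3 (ENSMUSG00000038067.3, chr11:98701263-98703629, plus strand), the granulocyte factor, had 58.8 and 53.8 CPM on 1 kPa, 2.97 and 3.05 CPM on 20 kPa, and 0.694 and 0.464 CPM on glass. On glass this was 15 and 8 counts, above the floor of 3 counts. It was 94.3-fold higher on 1 kPa than on glass (log2 6.56, SE 0.17, edgeR adjusted p = 6.5e-24), and 46 tested genes had a larger fitted rise. On 20 kPa it was 5.05-fold higher than on glass (log2 2.34, SE 0.28, adjusted p = 3.6e-08). It fell by 4.22 on the log2 scale on 20 kPa against 1 kPa (SE 0.12, adjusted p = 2.9e-21), a larger fall than in all but 3 tested genes. The 3 groups did not overlap, and the 20 kPa libraries lay far closer to glass than to 1 kPa.

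Csf1 (ENSMUSG00000014599.11, chr3:107741048-107760469, minus strand), which sustains macrophages and is made constitutively by many mesenchymal cells, had 775 and 763 CPM on 1 kPa, 579 and 587 CPM on 20 kPa, and 682 and 640 CPM on glass. The groups did not overlap, but the differences were small beside those of the other members. It was 1.16-fold higher on 1 kPa than on glass (log2 0.22, SE 0.06, edgeR adjusted p = 0.0022). It was the only member called lower on 20 kPa than on glass (log2 -0.18, SE 0.06, adjusted p = 0.011). That call was lost with libraries scaled to total counts (adjusted p = 0.085), without 20 kPa replicate 1 (0.1) and without 20 kPa replicate 2 (0.065), within a range of adjusted p over its alternatives of 0.00054 to 0.1. Against 1 kPa it was lower on 20 kPa (log2 -0.40, SE 0.06, adjusted p = 3.5e-06).

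Csf2 (ENSMUSG00000018916.6, chr11:54247271-54249667, minus strand), the granulocyte-macrophage factor, was seen in 19 and 17 counts on 1 kPa, 2 and 1 on 20 kPa, and 1 and 0 on glass. Most of its reads came from the soft gel, at under 1 CPM there, and the 20 kPa and glass libraries held at most 2 counts each. The summed counts gave a ratio of 36.5 for 1 kPa against glass, with a 95% interval of 6.14 to 1480 (exact conditional binomial, counting error only; edgeR adjusted p = 3.3e-05). The 20 kPa and glass sums were both at or under the floor, so no fold is given for that pair. For 20 kPa against 1 kPa the ratio was 0.0777 (0.0153 to 0.246; adjusted p = 0.00045). The size of its difference from glass rests on the single glass count: the fitted log2 fold change ran from 4.17 to 7.19 as each library was left out. Of its exon bases, 12% overlap Gm12223 on the other strand, and strand use in counting is not given in the sources used here.

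The IL-1 family showed 2 patterns, with Il33 and Il1rn high on both gels and Il1b seen almost only on 1 kPa. Il1rn (ENSMUSG00000026981.16, chr2:24336853-24351494, plus strand), the receptor antagonist, had 46 and 47.7 CPM on 1 kPa, 44.3 and 44.2 CPM on 20 kPa, and 4.16 and 4.99 CPM on glass. It was 10.3-fold higher on 1 kPa than on glass (log2 3.37, SE 0.11, edgeR adjusted p = 4.9e-21) and 9.75-fold higher on 20 kPa than on glass (log2 3.28, SE 0.11, adjusted p = 1e-20). Between the gels no difference was called: the log2 fold change for 20 kPa against 1 kPa was -0.08, with a 95% interval of -0.24 to 0.08 (adjusted p = 0.53).

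Il33 (ENSMUSG00000024810.17, chr19:29925114-29960718, plus strand), a nuclear cytokine released from damaged stromal and epithelial cells, had 14.7 and 15.4 CPM on 1 kPa, 19.2 and 20 CPM on 20 kPa, and 2.4 and 1.91 CPM on glass. It was the only member whose level was higher on 20 kPa than on 1 kPa. The log2 fold change was 2.78 for 1 kPa against glass (SE 0.16, edgeR adjusted p = 5e-15) and 3.16 for 20 kPa against glass (SE 0.15, adjusted p = 1.1e-16). Between the gels it was 0.38 for 20 kPa against 1 kPa (SE 0.11, adjusted p = 0.015). That smaller difference was not called when any of the 4 gel libraries was left out (adjusted p = 0.14 without 1 kPa replicate 1, 0.069 without 1 kPa replicate 2, 0.07 without 20 kPa replicate 1 and 0.12 without 20 kPa replicate 2) or by DESeq2 (0.12), within a range over all alternatives of 0.0048 to 0.14.

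Il1b (ENSMUSG00000027398.14, chr2:129364570-129371139, minus strand), the classical inflammatory IL-1, was seen in 19 and 9 counts on 1 kPa, 1 and 1 on 20 kPa, and 0 and 0 on glass. Each 1 kPa library held more counts than the 4 libraries of the other surfaces together. Set against a floor of 3 counts over the glass group, its level was at least 9.46-fold higher on 1 kPa (edgeR adjusted p = 6e-05). The 20 kPa and glass sums were both under the floor. For 20 kPa against 1 kPa the ratio of summed counts was 0.0666 (95% interval 0.00768 to 0.264, counting error only; adjusted p = 0.0015). Its exons overlap the antisense gene Il1bos over 1.31% of their bases.

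Tslp (ENSMUSG00000024379.5, on chromosome 18) was near the detection limit in every group, with 16 and 17 counts on 1 kPa, 8 and 11 on 20 kPa, and 3 and 7 on glass. The 20 kPa and glass libraries overlapped in CPM, at 0.39 and 0.533 on 20 kPa, and 0.139 and 0.406 on glass. It was higher on 1 kPa than on glass (log2 1.71, SE 0.58, edgeR adjusted p = 0.018; ratio of summed counts 3.34, 95% interval 1.61 to 7.61). Leaving out 1 library moved that log2 value between 1.07 and 2.58, and the call was lost without glass replicate 1 (log2 1.07, adjusted p = 0.2), without 1 kPa replicate 2 (log2 1.56, adjusted p = 0.09) and with DESeq2 (adjusted p = 0.091), in a range of 0.01 to 0.2. The other 2 comparisons gave no call, at log2 0.82 for 20 kPa against glass (SE 0.64, adjusted p = 0.33) and -0.89 for 20 kPa against 1 kPa (SE 0.52, adjusted p = 0.25).

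**Figure D2:**
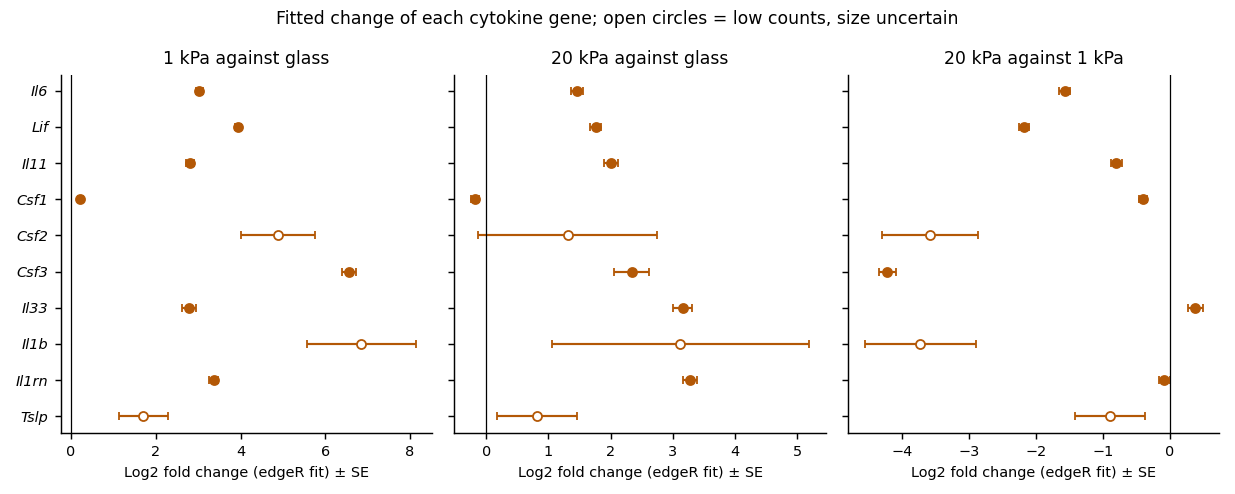
Fitted log2 fold change of each cytokine gene ± SE (edgeR, 2 libraries per group) in 3 comparisons; open circles mark Csf2, Il1b and Tslp, whose size is uncertain at these counts and is no bound. Csf3 stood at 6.56, 2.34 and -4.22, while Il1rn stood at 3.37, 3.28 and -0.08.

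By level, Lif, Il6, Il11 and Csf3 were highest on 1 kPa, next on 20 kPa and lowest on glass, with every neighbouring pair called. That order, with each step called, was met by 3.73% of all tested genes. A call for 1 kPa above both other surfaces was made in these 4 and in Csf1, Csf2 and Il1b, and in 6.62% of tested genes. Csf2 and Il1b passed the filter only through the 1 kPa libraries, so their calls add no support here. Il1rn had no called difference between its 2 highest surfaces, and the call between those of Il33 depended on every gel library. In Csf2 and Il1b the 2 lowest surfaces could not be told apart at this depth, and in Tslp no neighbouring pair was called. Csf1 was highest on 1 kPa and lowest on 20 kPa, with glass between them.

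Levels between members were set side by side per length, as CPM per kb of exon. Csf1 was the most abundant everywhere, with mean levels of 146 CPM per kb on 1 kPa, 110 on 20 kPa and 125 on glass. On 1 kPa it was followed by Il6 at 56.4, Csf3 at 39.9, Lif at 33.4 and Il11 at 23.3 CPM per kb. On glass the next after Csf1 was Il6 at 6.95 CPM per kb, and Csf3 stood at 0.41. The sum of the 10 members, in CPM, was 1230 and 1210 on 1 kPa, 750 and 764 on 20 kPa, and 722 and 682 on glass. Csf1 made up 62.8% to 63.3% of that sum on 1 kPa, 76.9% to 77.2% on 20 kPa and 93.9% to 94.5% on glass. Without Csf1 the summed level was 460 and 443 CPM on 1 kPa, 171 and 176 CPM on 20 kPa, and 39.8 and 41.8 CPM on glass.

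The 3' UTRs of many of these mRNAs carry AU-rich elements, which as background are bound by proteins of the Zfp36 family that promote mRNA decay. Stretches of at most 30 bases with the most pentamers are shown for the members with the highest density and for Lif, from GENCODE M21 transcripts (GRCm38). They are written as DNA, and capitals mark each ATTTA.
Csf2: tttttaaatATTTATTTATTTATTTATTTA
Csf3: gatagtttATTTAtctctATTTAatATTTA
Il1b: caaccacttacctATTTATTTAtgtATTTA
Il11: ctttaaaaccagatcttATTTATTTATTTA
Il6: tttaattatttttaATTTAttgataATTTA
Lif: ATTTAttcaatgtcatATTTAaaatATTTA

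Counted over the annotated 3' UTR of the longest coding transcript, overlapping matches included, ATTTA occurred 9 times in Csf2, 10 times in each of Il6 and Il11, 7 times in Lif, 6 times in Csf3, 4 times in each of Csf1 and Il1b, 3 times in Il33 and 2 times in Tslp. It did not occur in Il1rn, whose UTR was 1864 bases long. Per kb this was 28.4 in Csf2, 8.97 in Csf3, 8.71 in Il1b, 8.38 in Il11 and 6 in Il6, against a median of 1.22 over 20952 genes with a 3' UTR, of which 64.7% held at least 1. Lif, at 2.2 per kb, Csf1 at 1.89 and Il33 at 1.8 were closer to that median. The longer form TATTTAT occurred in 7 members and in 27.5% of genes. On the principal transcript of Il6, with a shorter UTR of 427 bases, the density was 14.1 per kb, an alternative chosen after seeing the data.

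**Figure D3:**
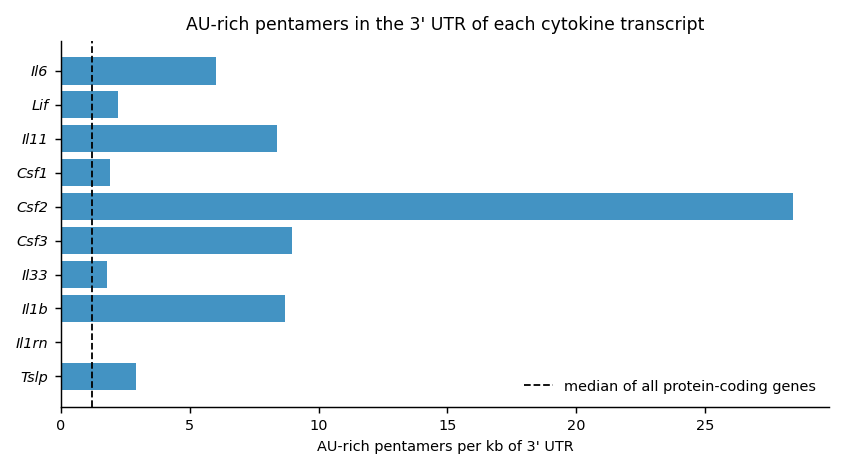
AU-rich pentamers per kb of 3' UTR (horizontal axis) for the longest coding transcript of each cytokine gene; the dashed line is the median of all genes with a 3' UTR. Csf2 stood at 28.4, Il1rn at 0 and the median at 1.22 per kb.

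Factors that control such mRNAs also differed between surfaces. Beside their counts, and those of every other gene list, stand the shares of all tested genes. These were 23% higher and 22% lower for 1 kPa against glass, and 22.3% and 19.6% for 20 kPa against glass. Between the gels, 8.94% were higher and 9.92% lower on 20 kPa than on 1 kPa. Of 12 AU-rich element and cytokine mRNA decay factors tested, 7 were higher and 3 lower on 1 kPa than on glass, 6 were higher and 3 lower on 20 kPa than on glass, and 1 was higher and 4 lower on 20 kPa than on 1 kPa. The 3 lower on 20 kPa than on glass became 1 without 20 kPa replicate 2 and 1 with total counts, and the 1 higher on 20 kPa than on 1 kPa was lost without 20 kPa replicate 1. The counts lower than glass, and the 1 higher between the gels, lay near the shares of all tested genes. The median log2 fold change of the list was 0.21, 0.16 and -0.11 in these comparisons. Zc3h12a, an RNase that degrades Il6 mRNA, had 116 and 108 CPM on 1 kPa, 37.7 and 39.9 CPM on 20 kPa, and 25.2 and 24 CPM on glass. Its log2 fold change was 2.19 for 1 kPa against glass (SE 0.08, edgeR adjusted p = 2e-20), 0.66 for 20 kPa against glass (adjusted p = 6.4e-08) and -1.53 for 20 kPa against 1 kPa (adjusted p = 2.5e-16). Zfp36, which encodes the decay factor tristetraprolin, stood at log2 1.02 and 0.67 for 1 kPa and 20 kPa against glass and -0.35 between the gels, all called. Arid5a, which stabilises Il6 mRNA, was at 0.79, 0.36 and -0.43, all called, whereas Zfp36l2 was lower on both gels (log2 -0.40 on 1 kPa and -0.44 on 20 kPa against glass).

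The receptors of the 10 cytokines did not share a single direction. Of 16 receptor genes named, 12 were tested, and 6 were higher and 3 lower on 1 kPa than on glass, 6 were higher and 4 lower on 20 kPa than on glass, and 1 was higher and 3 lower on 20 kPa than on 1 kPa. The last number was 1 without 1 kPa replicate 1 or without 20 kPa replicate 2, and 5 without either glass library. The median log2 fold changes of the 12 were 0.36, 0.25 and -0.16. Il6ra, the ligand-binding chain for IL-6, was lower on the gels, with 15.4 and 13.5 CPM on 1 kPa, 10.2 and 10.1 CPM on 20 kPa, and 28.8 and 27.1 CPM on glass (log2 -0.95 for 1 kPa and -1.46 for 20 kPa against glass; edgeR adjusted p = 5.8e-09 and 1.6e-12). Il6st, the shared gp130 chain, was abundant everywhere and slightly lower on the gels, at log2 -0.20 for 1 kPa and -0.35 for 20 kPa against glass (adjusted p = 0.0062 and 2e-05), and the call on 1 kPa was lost without 1 kPa replicate 1 (0.081) and without 1 kPa replicate 2 (0.071). Lifr, the other chain of the LIF receptor, was higher on the gels, with 77.3 and 68.5 CPM on 1 kPa, 61 and 59.1 CPM on 20 kPa, and 20.4 and 20.9 CPM on glass (log2 1.82 and 1.54, adjusted p = 1.1e-17 and 9.5e-16). Lifr was also lower on 20 kPa than on 1 kPa (log2 -0.28, adjusted p = 0.0053), but was not called without 1 kPa replicate 1 (0.23) or without 20 kPa replicate 2 (0.082). Il11ra1, the IL-11 receptor, was higher on both gels (log2 0.50 and 0.95) and higher on 20 kPa than on 1 kPa (log2 0.45), but near-identical Il11ra copies make its counts uncertain.

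On the IL-1 side, Il1r1, the signalling receptor for IL-1, had 496 and 480 CPM on 1 kPa, 417 and 389 CPM on 20 kPa, and 184 and 191 CPM on glass. Its log2 fold change was 1.38 for 1 kPa against glass (SE 0.06, edgeR adjusted p = 3.2e-18) and 1.10 for 20 kPa against glass (SE 0.06, adjusted p = 8e-16). Il1r1 was also lower on 20 kPa than on 1 kPa (log2 -0.28, adjusted p = 0.00055), but was not called without 20 kPa replicate 2 (0.051). Its co-receptor Il1rap was also higher on the gels, at log2 0.47 and 0.53, while Il1r2, the decoy receptor, gave no call (0.47 and 0.29, adjusted p = 0.071 and 0.3). Il1rl1, the receptor for IL-33, was abundant, at 1970 CPM in each 1 kPa library, 2130 in each 20 kPa library, and 2790 and 3030 on glass. It was lower on the gels (log2 -0.56 and -0.45), opposite in direction to Il33 itself. Il7r, a chain of the TSLP receptor, had no count in any library. Crlf2, the TSLP-specific chain, was slightly higher on 1 kPa than on glass (log2 0.26, edgeR adjusted p = 0.01). That call was lost without glass replicate 2 (log2 0.17) and without 1 kPa replicate 1 (log2 0.25). Crlf2 was also called higher on 20 kPa than on glass (log2 0.21, edgeR adjusted p = 0.041). Among other settings, that call was lost with no filter (0.053), with only the 2 groups fitted (0.065) and with DESeq2 (0.15).

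Of the receptors for the colony-stimulating factors, Csf1r and Csf2rb were under 5 CPM in every library and Csf2ra was higher. Csf1r, the CSF-1 receptor and a macrophage marker, had 2.83 and 2.75 CPM on 1 kPa, 2.29 and 1.89 CPM on 20 kPa, and 3.19 and 4.64 CPM on glass. It was called lower on 20 kPa than on glass (log2 -0.89, edgeR adjusted p = 0.005), but not without glass replicate 2 (0.1) or without 20 kPa replicate 2 (0.071). Csf2rb, the beta chain of the Csf2 receptor, had 2.83 and 3.25 CPM on 1 kPa, 1.56 and 1.99 CPM on 20 kPa, and 0.0925 and 0 CPM on glass. The ratio of its summed counts to glass was 58.8 on 1 kPa (95% interval 15.9 to 491) and 34.5 on 20 kPa (9.21 to 290). Its near-identical neighbour Csf2rb2 makes those counts uncertain, and Csf2ra, the alpha chain, had 13 and 15.5 CPM on 1 kPa, 11.9 and 15.6 CPM on 20 kPa, and 12 and 13.3 CPM on glass, with no call in any comparison.

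**Figure D4:**
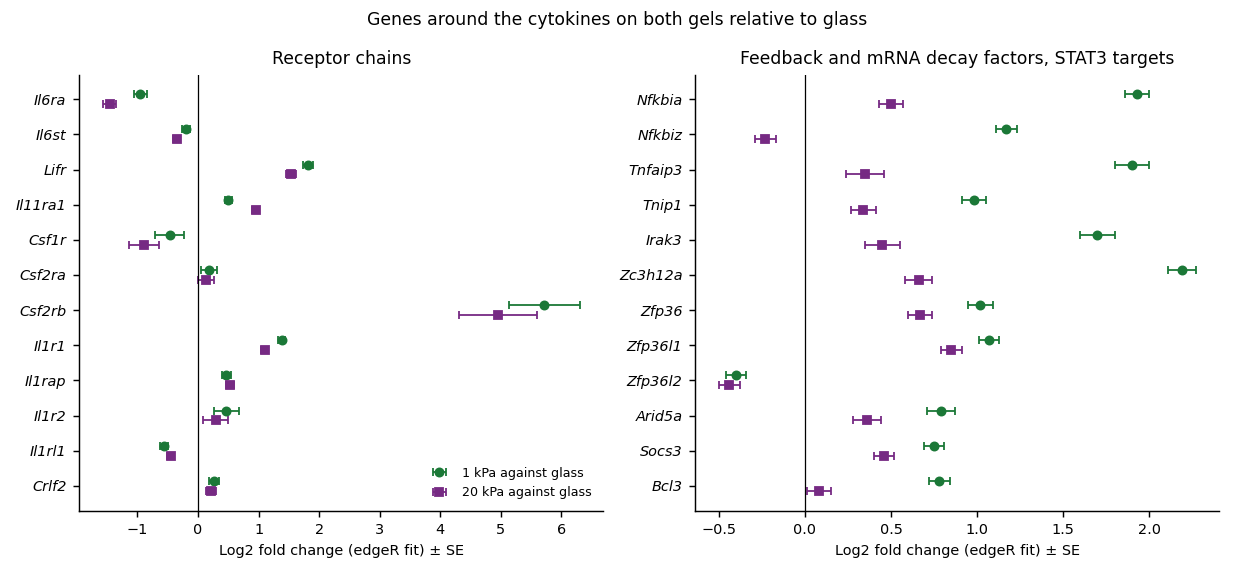
Log2 fold change ± SE against glass on 1 kPa (circles) and 20 kPa (squares) for receptor chains and for feedback, decay and STAT3-target genes (edgeR, 2 libraries per group). Lifr was at 1.82 and 1.54 and Il1r1 at 1.38 and 1.10, while Nfkbia, Tnfaip3, Irak3 and Zc3h12a were far higher on 1 kPa than on 20 kPa; Csf2rb rests on 2 glass counts.

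Genes of IL-1 receptor signalling, with the receptor Il1r1 among them, followed the soft-gel pattern in part. Of 20 IL-1 receptor signalling genes, 10 were higher and 2 lower on 1 kPa than on glass. On 20 kPa, 9 were higher and 4 lower than on glass, and 1 was higher and 9 lower than on 1 kPa. The median log2 fold changes were 0.22, 0.14 and -0.14 in that order of comparisons. For 1 of the 20, the filter was passed only through the 1 kPa libraries. The 19 others held the same calls, with medians of 0.23, 0.15 and -0.02. The 2 lower on 1 kPa became 1 without any 1 library other than 1 kPa replicate 2 and with DESeq2. The 4 lower on 20 kPa than on glass became 2 without 20 kPa replicate 1 or replicate 2 and with total counts, and the 1 higher on 20 kPa than on 1 kPa was lost without 1 kPa replicate 1 or 20 kPa replicate 2. Nfkbia, the inhibitor of NF-kB that NF-kB itself induces, had 121 and 129 CPM on 1 kPa, 47.8 and 44.7 CPM on 20 kPa, and 32.7 and 32.8 CPM on glass. It was at log2 1.93 for 1 kPa against glass, 0.50 for 20 kPa against glass and -1.43 for 20 kPa against 1 kPa, all called. Nfkbiz, an NF-kB co-factor at the Il6 promoter, was higher on 1 kPa (log2 1.17) and slightly lower on 20 kPa (log2 -0.23) than on glass. The brake Irak3 was at log2 1.70 and 0.45 against glass, and Tnfaip3, another brake, at 1.90 on 1 kPa. On 20 kPa Tnfaip3 was at 0.35 against glass, a call lost without glass replicate 2 (adjusted p = 0.082), without 20 kPa replicate 2 (0.14) and with DESeq2 (0.061).

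Genes of the gp130 pathway were also examined. The lists overlap: Il6st, counted among the receptors, is also on the gp130 list, and Socs3 is on both the gp130 and STAT3 target lists. Of 15 gp130 JAK-STAT genes, 11 were higher and 1 lower on 1 kPa than on glass, 10 were higher and 2 lower on 20 kPa than on glass, and 1 was higher and 4 lower on 20 kPa than on 1 kPa, with median log2 fold changes of 0.37, 0.36 and -0.10. The 1 lower on 1 kPa became 0 without either 1 kPa library, and the 2 lower on 20 kPa than on glass became 1 without either 20 kPa library and with total counts. Jak2 was at log2 1.27 for 1 kPa against glass, 0.77 for 20 kPa against glass and -0.50 between the gels, all called. Socs3, a feedback inhibitor that STAT3 induces, had 247 and 253 CPM on 1 kPa, 203 and 203 CPM on 20 kPa, and 152 and 144 CPM on glass, at log2 0.75 and 0.46 against glass (edgeR adjusted p = 2.9e-12 and 9.7e-08). Of 12 STAT3 target genes, 9 were higher and 1 lower on 1 kPa than on glass, 6 were higher and 2 lower on 20 kPa than on glass, and 10 were lower on 20 kPa than on 1 kPa. Their median log2 fold changes were 0.76, 0.30 and -0.31. Bcl3 was at log2 0.78 for 1 kPa against glass and -0.70 between the gels, both called, with 0.08 for 20 kPa against glass (adjusted p = 0.36). Genes of this list also respond to other stimuli.

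Of 26 other cytokines of the families named, 22 were in the table and 12 were tested, of which 3 passed the filter only through the 1 kPa libraries. Of the 9 that passed without those libraries, 7 were higher and 1 lower on 1 kPa than on glass, 7 were higher on 20 kPa than on glass, and 1 was higher and 1 lower on 20 kPa than on 1 kPa. Their median log2 fold changes were 0.60, 0.76 and -0.06. The 1 lower on 1 kPa was not called without glass replicate 2, without 1 kPa replicate 1 or without either 20 kPa library, and the 1 higher on 20 kPa than on 1 kPa was not called without either 1 kPa library or without 20 kPa replicate 2. Il1f6 and Il1f9, which encode the IL-36 alpha and gamma cytokines, had low counts. Like Il1b, they passed the filter only through the 1 kPa libraries, so their pattern is no support. Of the 22 genes, 8 had no count on glass, this pair among them, as was also so for Il1b. Il1f9 had 29 and 30 counts on 1 kPa, 2 and 1 on 20 kPa and 0 and 0 on glass. Of the IL-1 processing and inflammasome genes, 3 of 6 were higher on 1 kPa and 3 of 6 on 20 kPa than on glass, Casp4, which senses cytosolic lipopolysaccharide, among them at log2 1.72 and 1.36.

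Markers of other cells were examined because leukocytes and keratinocytes also make these cytokines. The summed level of 18 leukocyte markers was 19.8 and 16.7 CPM on 1 kPa, 16.4 and 14.9 CPM on 20 kPa, and 12.9 and 15 CPM on glass, with Cpa3 and Fcer1a among those at 0 in every group and Cd3e at 0 on both gels. Of the 7 tested, 3 were higher on 1 kPa than on glass, among them Mpeg1, a macrophage gene, at log2 1.78, and on 20 kPa 2 were higher and 1 was lower than on glass. Of these 7, 2 passed the filter only through the 1 kPa libraries, and 2 of the other 5 were higher on 1 kPa than on glass. Laptm5, 1 of the 3 higher on 1 kPa, was not called with DESeq2 (adjusted p = 0.33). Its log2 fold change ran from 2.05 to 6.55 as each library was left out. On 20 kPa the 2 higher became 1 without glass replicate 1 or without 20 kPa replicate 1, and the 1 lower became 0 without glass replicate 2 or without 20 kPa replicate 2. On 1 kPa 1 marker was called lower than on glass without glass replicate 1. The 10 keratinocyte markers summed to 26.8 and 28.7 CPM on 1 kPa, 27.1 and 27.9 CPM on 20 kPa, and 20.2 and 25.3 CPM on glass. Of 6 tested, 1 was higher and 4 were lower on each gel than on glass: the keratins Krt5, Krt14 and Krt17 were among those lower, and Trp63, abundant among these markers on the gels, was higher. Krt15 was at 0 on both gels, and Krt1 was at 0 on 20 kPa and on glass. The 9 endothelial markers summed to 42.7 and 38.6 CPM on 1 kPa, 37.7 and 38.5 CPM on 20 kPa, and 20.7 and 22 CPM on glass, with 6 higher on 1 kPa and 7 higher on 20 kPa than on glass and none at 0. Chondrocyte and muscle markers summed to 599 and 586 CPM on 1 kPa and 1070 and 1030 CPM on 20 kPa. On glass they summed to 514 and 487 CPM. Of 8 tested, 6 were higher and 1 lower on 1 kPa than on glass, and 5 higher and 1 lower on 20 kPa. Of these 8, 1 passed the filter only through the 1 kPa libraries. Of the 7 others, 5 were higher and 1 lower on 1 kPa than on glass, and 4 higher and 1 lower on 20 kPa. The 1 lower on 20 kPa became 0 without either 20 kPa library. The endothelial count gained 1 lower on 20 kPa than on glass without glass replicate 2, without 1 kPa replicate 1 or without 20 kPa replicate 1. The part of these cells in the cytokine differences was not tested.

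By the pair of log2 fold changes against glass, the genes nearest to each member among 14154 with at least 1 CPM in the highest group were listed. Cd14 and Prdm1 were among the 3 nearest to Il6, and Arg2, Serpina3g and the chemokine gene Cxcl3 lay nearest to Lif. Sele, Ch25h and Acpp lay nearest to Il11. Epyc, Rasl11b and Ednra lay nearest to Il33, with Epyc at log2 2.77 and 3.20, and Sorcs1, Erv3 and Tmem151b to Il1rn. Csf3 had no close neighbour: the nearest, Gpr84, was 1.17 log2 units away. Distances were taken over 2 values from 3 groups and say nothing of shared function.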

How the data were processed

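Polyadenylated RNA was sequenced from mouse ear fibroblasts on 1 kPa, 20 kPa or glass, 2 libraries each, and groups and replicate numbers come from the sample titles. The authors deposited a table of raw gene counts with no normalisation. STAR 2.7.10b, Trim Galore, cutadapt, featureCounts and mm10 are named per the submitters' processing notes; settings, annotation and strandedness were not given in the sources used here. Symbols and positions come from GENCODE M21 (GRCm38), which matched 91.3% of identifiers and 98.2% of those tested.

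Genes were filtered with filterByExpr by group (at least 0.494 CPM in 2 libraries), TMM-scaled and fitted in 1 edgeR 4.0.16 quasi-likelihood model over all 6 libraries (R 4.3.3, group only, 3 residual degrees of freedom), with Benjamini-Hochberg adjustment over 16093 genes, a threshold of 0.05 and two-sided tests. The fit was tested on simulated counts. The biological coefficient of variation was 4.98%. A value's SE is the size of the log2 fold change over the square root of its F statistic. Low counts have exact conditional binomial 95% intervals, and intervals and the floor of 3 counts cover counting error only, since libraries were amplified without molecular identifiers. With 2 libraries a group, an exact permutation test of 1 gene could not go below p = 0.333. No libraries of a group agreed within counting noise (chi-square per degree of freedom 3.7 to 42.7).

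The members and the gene lists were chosen with earlier results of these data known. The text names all members, all tested receptors, at most 6 genes a list by smallest p, and the 3 genes nearest to a member; a few genes that this rule or a list would name are not reported here. Alternatives were RLE factors, total counts, no filter, a stricter filter, fits of only the groups compared, a replicate block, each library left out, limma-voom (limma 3.58.1) and DESeq2 1.42.0. AU-rich pentamers and promoter motifs were counted without a test.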

Additional observations from a re-analysis of the deposited data

How the results depend on the processing

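Of 411 recomputed log2 fold changes of the 10 members, 400 kept their direction and side of the threshold, 11 kept their direction but lost the call (Tslp for 1 kPa against glass, Csf1 for 20 kPa against glass and Il33 between the gels) and 0 reversed. Of 3141 values of other named genes, 3042 kept their side of the threshold, 86 lost the call and 13 gained it. A reversal was counted only where a call was made, and there were 0. Among uncalled values some changed sign, as Csf2ra did for 20 kPa against glass (log2 -0.08 to 0.31). Of 1008 recomputed list counts, 924 stayed within 1.5 times. The number of genes called between the gels was 3035 and fell to 2000 with DESeq2; leaving out 1 library gave 1727 to 3758 genes, the lowest without 1 kPa replicate 2. Leaving out 1 library gave 5642 to 6948 genes called for 1 kPa against glass, 5101 to 6438 for 20 kPa against glass and 7001 to 7880 over the 3 groups. Members called ran from 9 to 10, 6 to 7 and 7 to 8 in the 3 comparisons when 1 library was left out; with the stricter filter of 1 CPM in 2 libraries they were 7, 7 and 6, since Csf2, Il1b and Tslp were not tested there. Over the 3 groups, 9 to 10 members were called without 1 library. Same-numbered libraries did not deviate together over all tested genes (correlations -0.0347, -0.0158 and -0.0338). With 2 libraries a group this cannot exclude that they shared an animal, day or batch. With a replicate block, 7032, 6526 and 2862 genes and 10, 7 and 8 members were called, with 9 over the 3 groups. Depth limits Csf2, Il1b and Tslp, at 33 to 36 counts or fewer a group.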
